A study of Mus musculus with 2 samples.

Results

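Serpins and the plasminogen activators were examined in MEFs, primary cultures of fibroblasts taken from mouse embryos. The members were all genes whose symbol in the platform annotation starts with Serpin, together with Plau, Plat, Plaur and Plg, taken from probe sets with 1 gene symbol. They were 44 genes (40 serpins and the other 4) with 62 probe sets, of 18194 genes with a probe set of 1 gene symbol. The Malat1 knock-out group was MEFs from Malat1 knock-out embryos and the wildtype group was MEFs from wildtype embryos. Both were of strain C57BL/6 at embryonic day 13.5, kept in culture for 2 weeks and left untreated, with 1 Affymetrix Mouse430_2 array per genotype. The allele, the number of embryos and their sex are not given in the labels. Every difference below is therefore a description of 2 arrays with no replicate check and no p-value.

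Plasminogen is a zymogen that is cut to plasmin, a protease that dissolves fibrin and cleaves matrix proteins, by the activators encoded by Plau (urokinase) and Plat (tissue type). Urokinase works at the cell surface, bound to the receptor encoded by Plaur. Most serpins are inhibitors that trap a target protease by a bait loop that the protease cuts, and some of them block these activators or plasmin itself, while others have other targets or act without inhibiting any protease. Clade B serpins mostly stay inside the cell and clade A serpins are mostly secreted, many of them by the liver. Fibroblasts use this system in wound repair and matrix turnover.

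The promoters of 5 members are shown because Serpinb2, Serpinb9b and Plaur had the largest positive differences between the arrays, while Serpinb9, next to Serpinb9b in the order of protein-coding genes, and Serpinb6b, next to Serpinb9 on its other side, differed the other way. The sequences are the 250 bases before the start of each gene, from RefSeq on build GRCm38.p6, 5′ to 3′.
Serpinb2 promoter, chr1:107511173-107511422, + strand: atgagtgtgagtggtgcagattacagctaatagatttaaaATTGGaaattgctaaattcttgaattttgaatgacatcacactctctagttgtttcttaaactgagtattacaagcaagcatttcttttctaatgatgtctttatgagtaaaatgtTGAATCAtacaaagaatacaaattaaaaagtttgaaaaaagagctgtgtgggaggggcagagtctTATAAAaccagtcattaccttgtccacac
Plaur promoter, chr7:24462233-24462482, + strand: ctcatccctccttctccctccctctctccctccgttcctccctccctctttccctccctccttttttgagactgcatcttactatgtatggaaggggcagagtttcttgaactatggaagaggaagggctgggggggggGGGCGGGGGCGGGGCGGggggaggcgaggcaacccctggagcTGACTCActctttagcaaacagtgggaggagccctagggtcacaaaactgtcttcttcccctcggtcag
Serpinb9b promoter, chr13:33027164-33027413, + strand: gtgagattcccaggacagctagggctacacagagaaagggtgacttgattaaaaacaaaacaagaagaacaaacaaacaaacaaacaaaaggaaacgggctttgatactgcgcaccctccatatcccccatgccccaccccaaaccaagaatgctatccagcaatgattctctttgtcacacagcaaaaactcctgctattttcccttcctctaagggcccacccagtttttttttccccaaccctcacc
Serpinb9 promoter, chr13:33004291-33004540, + strand: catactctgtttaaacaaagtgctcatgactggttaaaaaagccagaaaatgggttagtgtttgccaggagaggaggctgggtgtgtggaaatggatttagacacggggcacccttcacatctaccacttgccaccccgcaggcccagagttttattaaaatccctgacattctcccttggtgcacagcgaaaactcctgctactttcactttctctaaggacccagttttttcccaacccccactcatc
Serpinb6b promoter, chr13:32965011-32965260, + strand: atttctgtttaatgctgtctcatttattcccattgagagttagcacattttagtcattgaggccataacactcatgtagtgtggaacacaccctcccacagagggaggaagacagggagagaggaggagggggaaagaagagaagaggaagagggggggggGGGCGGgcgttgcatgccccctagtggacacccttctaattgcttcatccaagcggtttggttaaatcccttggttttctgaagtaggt
Capitals mark matches, on either strand, to the letters TGANTCA (bound by AP-1), TATAAA (the TATA box), CCAAT (read ATTGG on the other strand) and GGGCGG (the GC box bound by Sp1). TGANTCA is found in 6.75% of the 32851 promoter windows of this length in the RefSeq table, TATAAA in 12.4%, CCAAT in 33.8% and GGGCGG in 32.7%. The Serpinb2 window holds TGAATCA, starting 94 bases before the gene, and TATAAA, starting 29 bases before it, as well as the CCAAT match at 210. The Plaur window holds TGACTCA at 69 bases before the gene and 3 GC boxes at 111, 105 and 100. The GC boxes at 105 and 100 share 1 base. Serpinb6b has a GC box at 89, and the windows of Serpinb9b and Serpinb9 hold none of these letters. Serpinb9b and Serpinb9 share 58% of their promoter bases in a global alignment, against 42.4% for Serpinb9b and Serpinb6b and 48% for Serpinb9b and Serpinb2. Of 13 members at or above the median of both arrays with a promoter in the table, 3 hold TGANTCA, namely Plaur, Serpinb2 and Serpinb8. Among the same 13, 1 holds TATAAA (Serpinb2) and 3 hold CCAAT (Serpinb2, Serpinf1 and Serpini1). GGGCGG is held by 4 of them (Plaur, Serpinb6a, Serpinb6b and Serpinh1). These matches are descriptions of letters and not of bound sites.

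The arrays were first compared for their labels and for the identity of the cells. Malat1 was above the median of its array in the wildtype alone (4.53 in the knock-out and 9.80 in the wildtype, at least 20.6-fold lower on the log2 signals turned to linear). Xist, the RNA of the inactive X chromosome, was at 11.49 in the knock-out and 4.50 in the wildtype (at least 68.5-fold higher). The Y-linked genes went the other way, with Eif2s3y at 2.81 and 8.57, Uty at 2.97 and 7.56 and Kdm5d at 2.95 and 7.44 on the knock-out and wildtype array. Transcripts of the sex chromosomes thus differ along with Malat1, and genotype and sex cannot be told apart in any difference below. All 12 fibroblast markers were at or above the median of both arrays, among them Col1a2, Col3a1, Vim and Thy1.

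Most members gave little signal in these fibroblasts. A gene was taken as measured at or above the median of the array over non-control probe sets, which was 5.44 for the knock-out and 5.39 for the wildtype. This line is a working limit, since no detection calls were used. Of the 44 members 16 (36.4%) were measured on the knock-out array and the same 16 on the wildtype array, against 64.4% and 63.1% of all genes. On both arrays together 62.1% of all genes were measured. No member was measured on 1 array alone. Just above the line lay Serpinb8, at 5.62 in the knock-out and 5.60 in the wildtype, and just below it Serpinb1a, at 5.12 in the knock-out and 5.37 in the wildtype.

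The measured members were spread unevenly over the clades. Of 14 clade A members 1 was measured, Serpina3n. Of 18 clade B members 7 were measured. Both clade F members (Serpinf1 and Serpinf2), the only member of clade G (Serping1), the only one of clade H (Serpinh1) and 1 of the 2 of clade I (Serpini1) were measured. Plau, Plat and Plaur were measured, and Plg, which encodes plasminogen itself and is made mainly by the liver, was not.

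The 28 members below the median of both arrays had signals of 2.32 to 5.37 in the knock-out (median 3.63) and 2.39 to 5.37 in the wildtype (median 3.37). Besides Plg they were the clotting inhibitors Serpinc1 (antithrombin) and Serpind1 (heparin cofactor II), Serpini2, and 13 clade A and 11 clade B members. The clade A members were Serpina10, Serpina11, Serpina12, Serpina1b, Serpina1c, Serpina1f, Serpina3a, Serpina3i, Serpina4-ps1, Serpina5, Serpina6, Serpina7 and Serpina9. The clade B members were Serpinb1a, Serpinb1b, Serpinb3a, Serpinb5, Serpinb6c, Serpinb7, Serpinb9c, Serpinb9d, Serpinb9g, Serpinb11 and Serpinb12. Of 12 hepatocyte and visceral endoderm markers with a probe set, 4 were measured on both arrays (Ttr, Apoa1, Apoh and Hnf4a), all of them higher in the knock-out with a median of 0.31, and Apoa2 was measured in the knock-out alone. The other 7, Alb and Afp among them, were below the median of both arrays. Another 3 probe sets carry several serpin symbols and were left out, and their highest signal was 5.10 in the knock-out and 4.79 in the wildtype, below the medians.

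**Figure D1:**
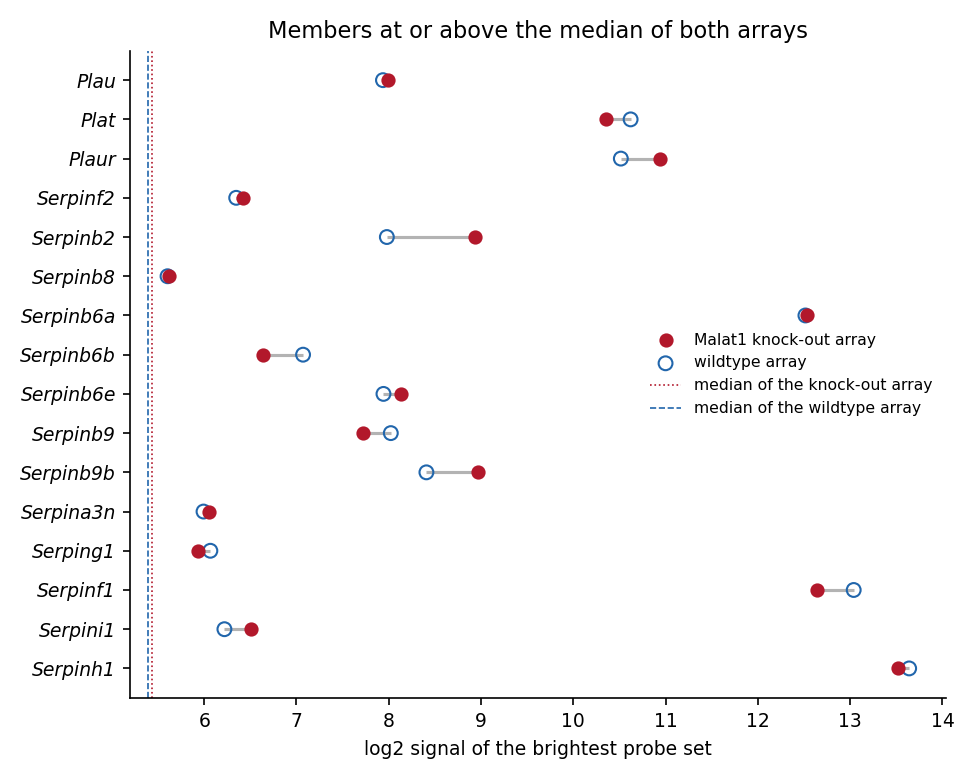
Log2 signal (x axis) of the brightest probe set of each of the 16 measured members, ordered by role from top to bottom, with filled red points for the Malat1 knock-out array and open blue circles for the wildtype array. Serpinb2 shows the widest gap, at 8.93 in the knock-out and 7.98 in the wildtype, and vertical lines mark the array medians of 5.44 and 5.39.

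The main comparison asked how these genes differ between the Malat1 knock-out and the wildtype array. Serpinb2 had the largest difference among the measured members, followed by Serpinb9b. Of the 16 measured members 10 were higher and 6 lower in the knock-out, with a median difference (knock-out minus wildtype, log2) of 0.04, against -0.05 for all 11295 genes measured on both arrays, of which 39.2% were higher. After quantile normalization or loess centring 9 members were higher and 7 lower. The members' differences ran from -0.43 to 0.95, and 8 of the 16 were within 0.2 log2 units of 0. Past 0.3 log2 units there were 3 members higher (Serpinb2, Serpinb9b and Plaur) and 2 lower (Serpinb6b and Serpinf1), against 6.81% and 11.5% of all measured genes. Past 1.5-fold there was 1 member higher in the knock-out, Serpinb2, against 0.832% of all measured genes, and 0 members lower, against 1.61%. Over all genes, 94 were past 1.5-fold higher and 182 lower as deposited, a split that became 146 and 135 with the median difference set to 0, 165 and 109 with quantile normalization, and 134 and 129 with loess centring. Past 2-fold there was no member, against 0.336% of all measured genes in either direction. This holds for the values as deposited, since Serpinb2 reached 1.01 to 1.06 under the other 3 scalings, past 2-fold. The spread between measured probe sets of one gene, pooled over 4883 genes, was an SD of 0.199, which is a spread within these arrays and not between cultures.

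**Figure D2:**
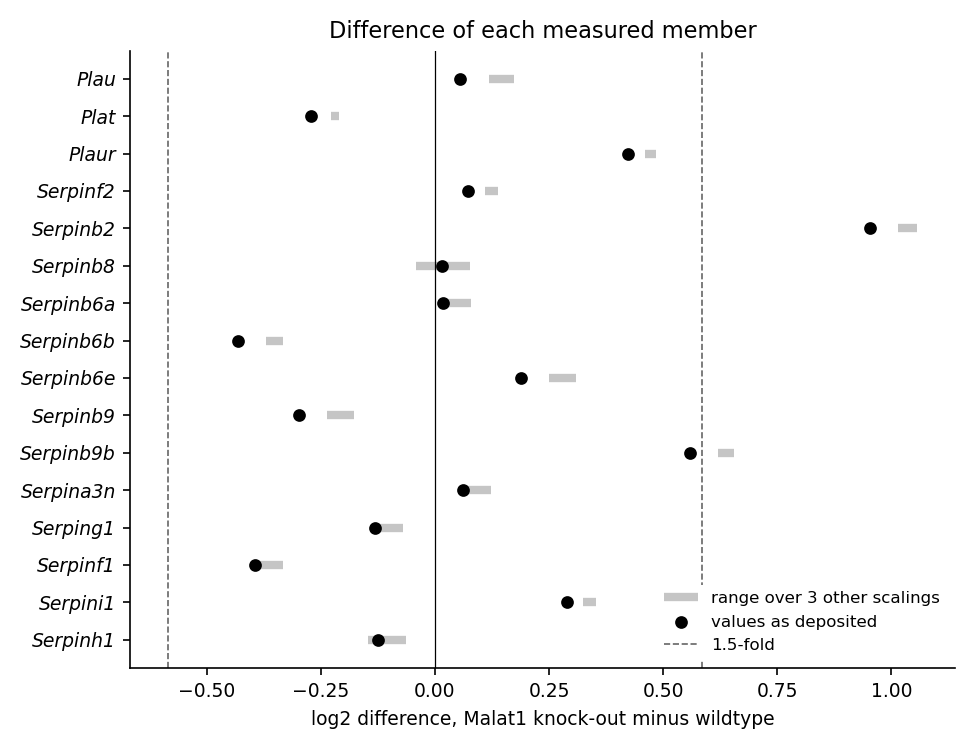
Log2 difference, Malat1 knock-out minus wildtype (x axis), for each of the 16 measured members, with black points for the values as deposited, grey bars for the range under 3 other scalings of the arrays and dashed lines at 1.5-fold. Serpinb2 lies past the line at 0.95, and Serpinb9b lies just inside it at 0.56 with its grey bar outside.

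The activators and the receptor were all measured on both arrays. Plau, which encodes urokinase, read 7.99 in the knock-out and 7.94 in the wildtype, a difference of 0.06, and its second probe set read 6.73 and 6.65. The arrays were thus close for both Plau probe sets. Plat, which encodes tissue-type plasminogen activator, read 10.35 in the knock-out and 10.62 in the wildtype, a difference of -0.27 (1.21-fold lower). The second Plat probe set, below the median of both arrays, read 5.38 and 5.05 and so went the other way. Plaur, the membrane-anchored urokinase receptor, read 10.94 in the knock-out and 10.51 in the wildtype, a difference of 0.42 (1.34-fold higher). Only 2.89% of measured genes had a larger positive difference than Plaur. Plau thus hardly differed and the Plat probe sets went in opposite directions, while the receptor was higher in the knock-out array. With the median over both Plat probe sets the Plat difference became 0.03.

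The serpins that act on this system were Serpinb2, Serpinf2 and Serpini1. Serpinb2, an inhibitor of plasminogen activators known from macrophages and keratinocytes, is found mostly inside the cell. It read 8.93 in the knock-out and 7.98 in the wildtype, a difference of 0.95 (1.94-fold higher), which ranked 11th from the top among the 11295 measured genes. Its probe set is the only one for the gene, so that no second probe set bears on the difference. Serpinf2, the plasmin inhibitor α2-antiplasmin, read 6.42 in the knock-out and 6.35 in the wildtype, a difference of 0.07. Serpini1, neuroserpin, an inhibitor of tissue-type plasminogen activator best known from neurons, read 6.51 in the knock-out and 6.22 in the wildtype, a difference of 0.29 (1.22-fold higher). The other 2 Serpini1 probe sets were below the medians and differed by 0.01 and -0.08. All 3 of these inhibitors had positive differences, of which only that of Serpinb2 was over 1.5-fold.

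Markers of cell types in which Serpinb2 and Plaur are known to be expressed moved in both directions. Of 12 macrophage and leukocyte markers 11 were measured, with 9 lower and 2 higher in the knock-out, a median of -0.39 and 1 (Mrc1) past 1.5-fold. Of 12 epithelial and keratinocyte markers 7 were measured, with 5 higher and 2 lower, a median of 0.47, Cldn4 and Perp past 1.5-fold higher and Sfn past 1.5-fold lower. Mrc1 and Sfn no longer passed it under the other 3 scalings, while Cldn3 passed it higher with the median difference set to 0, and Cldn3 and Krt18 did with quantile normalization. Krt14, Cdh1 and Trp63, of the same list, were below the median of both arrays. Krt5 was above it in the knock-out alone, at 5.57 in the knock-out and 5.26 in the wildtype. The 5 measured endothelial markers of 10 were all higher, with a median of 0.41 and Emcn, at 1.47, past 1.5-fold, while the 4 markers Pecam1, Cdh5, Tie1 and Tek were below both medians and Esam was above its array's median in the wildtype alone. The 5 measured neuron and neural crest markers were 3 higher and 2 lower, with a median of 0.33 and Gap43, at 0.86, past 1.5-fold. Emcn and Gap43 stayed past 1.5-fold under the other 3 scalings. No mast cell marker of 8 was measured. The part of these cell types in the differences of Serpinb2, Plaur and Serpini1 was not tested. In RNA from a whole culture, fewer cells of a type and less RNA per cell cannot be told apart.

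The other clade B serpins mostly guard cells against proteases of immune granules and lysosomes. Serpinb9, the inhibitor of granzyme B, read 7.72 in the knock-out and 8.02 in the wildtype, a difference of -0.30 (1.23-fold lower). Its second probe set was below the medians and differed by -0.21. Serpinb9b, a rodent paralog of Serpinb9, read 8.97 in the knock-out and 8.41 in the wildtype, a difference of 0.56 (1.47-fold higher), just inside the 1.5-fold line. Only 0.992% of measured genes had a larger positive difference than Serpinb9b. The pair of paralogs thus differed in opposite directions on the same arrays.

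Serpinb6b, a relative of the cathepsin G inhibitor Serpinb6a, read 6.64 in the knock-out and 7.07 in the wildtype, a difference of -0.43 (1.35-fold lower). It was the lowest difference among the measured members, and 4.69% of measured genes lay lower still. Serpinb6a read 12.53 in the knock-out and 12.51 in the wildtype, a difference of 0.02, and so hardly differed. Serpinb6e read 8.13 in the knock-out and 7.94 in the wildtype, a difference of 0.19, from a probe set whose probes may also bind transcripts of related genes (its name ends in _x_at). Serpinb8, known in human cells as an inhibitor of the proprotein convertase furin, differed by 0.02. Overlap between probes of these close paralogs was not tested, and the split of signal between Serpinb6 or Serpinb9 genes is uncertain to that extent.

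The members were also placed in the order of genes along the chromosomes, a property the choice of genes did not use. The 44 members lie on 12 chromosomes, of which chromosome 13 holds 11, chromosome 12 holds 13 and chromosome 1 holds 8. On chromosome 13, 5 of the 11 were measured, and the adjacent genes Serpinb6b, Serpinb9 and Serpinb9b differed by -0.43, -0.30 and 0.56. On chromosome 1, 2 of the 8 were measured, and Serpinb8, close to Serpinb2 in the same cluster, differed by 0.02 while Serpinb2 differed by 0.95. The next member on the other side of Serpinb2, Serpinb7, was below the median of both arrays. On chromosome 12 the single measured member was Serpina3n. Serpin genes lying close together therefore did not share one difference on chromosome 1 or chromosome 13.

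**Figure D3:**
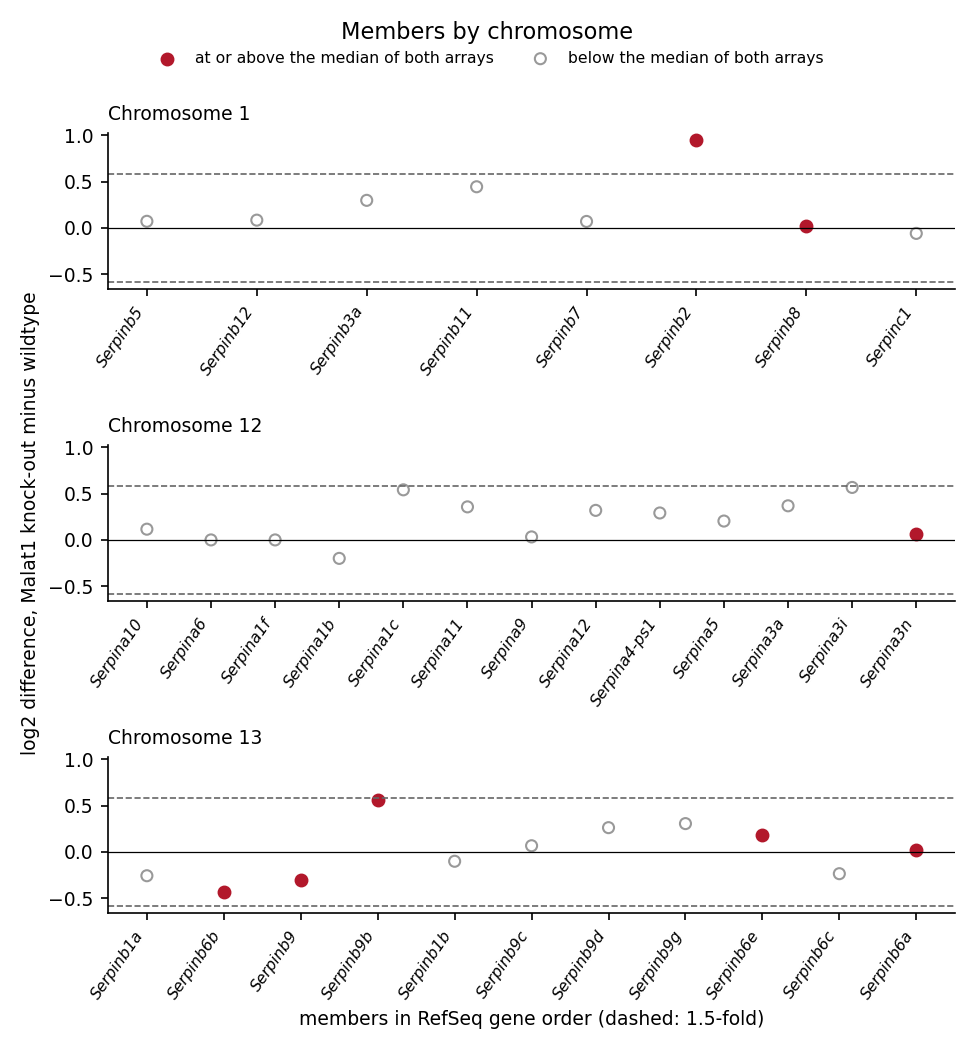
Log2 difference, Malat1 knock-out minus wildtype (y axis), of the members on chromosomes 1, 12 and 13 in RefSeq gene order (x axis), with filled red points for members at or above the median of both arrays and open grey circles for members below both medians. Family genes that were not analysed are left out, so members shown side by side need not be adjacent on the chromosome. Serpinb2 stands at 0.95 and Serpinb8, the next member shown, at 0.02. Serpinb9b at 0.56 follows Serpinb6b and Serpinb9, which lie below 0.

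The secreted serpins besides Serpinf2 and Serpini1 differed by -0.39 to 0.06. Serpina3n, an acute phase serpin, read 6.05 in the knock-out and 5.99 in the wildtype, a difference of 0.06. Serping1, the inhibitor of the first complement proteases and of plasma kallikrein, read 5.94 in the knock-out and 6.07 in the wildtype, a difference of -0.13. Serpinf1, pigment epithelium-derived factor, a secreted serpin that inhibits no protease and is known for restraining blood vessel growth, read 12.64 in the knock-out and 13.04 in the wildtype, a difference of -0.39 (1.31-fold lower). Its second probe set read 11.95 and 12.27, a difference of -0.32. Both Serpinf1 probe sets were thus lower in the knock-out by similar amounts, and 6.15% of measured genes had a lower difference than Serpinf1.

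Serpinh1, also called HSP47, is a serpin of the endoplasmic reticulum that inhibits no protease and holds procollagen in its folded form. It read 13.52 in the knock-out and 13.64 in the wildtype, a difference of -0.12, and its second probe set read 13.48 and 13.51. The genes for other steps of collagen processing went the same way. All 16 measured partners of Serpinh1 in collagen processing were lower in the knock-out, with a median of -0.24 and none past 1.5-fold, on arrays where 39.2% of all measured genes were higher. Fibroblast markers moved with them, with 8 of 12 lower, a median of -0.21, Col1a1 at -0.95 and Pdgfra at -0.73 past 1.5-fold lower under every scaling and Dcn at 0.74 past it higher. The part of fibroblast content in these differences was not tested. Among them Plod1, a lysyl hydroxylase, differed by -0.46, Bmp1, the procollagen C-proteinase, by -0.40 and P3h3, of the prolyl 3-hydroxylase family, by -0.34. Under the other scalings 13 to 15 of the 16 were lower, with medians of -0.17 to -0.16.

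**Figure D4:**
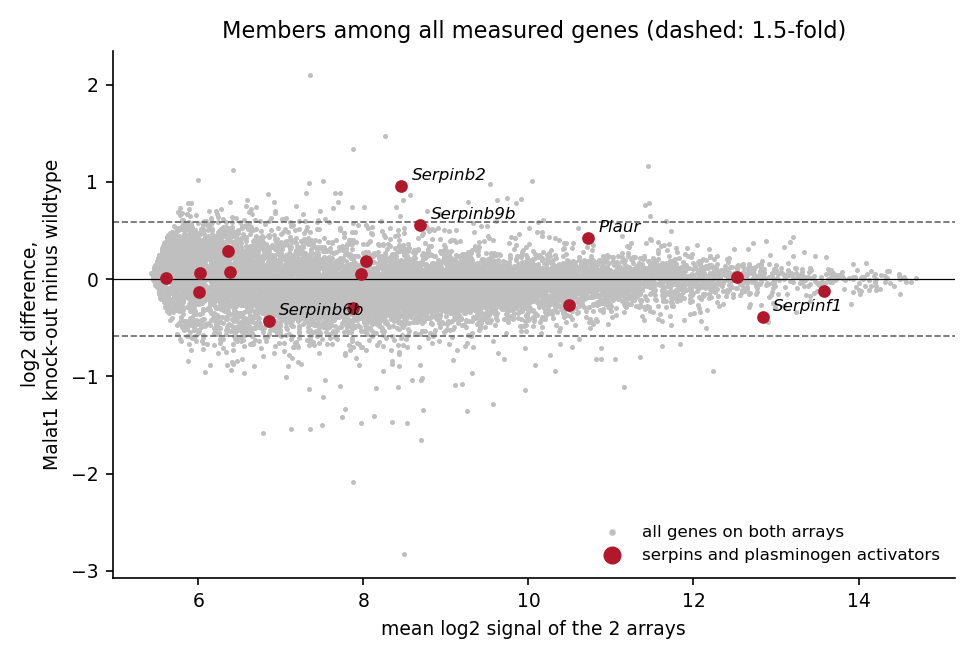
Log2 difference, Malat1 knock-out minus wildtype (y axis), against the mean log2 signal of the arrays (x axis) for the 11295 genes measured on both arrays (grey) and the 16 measured members (red), with dashed lines at 1.5-fold. Serpinb2 lies above the line at 0.95, and the other members lie between the lines, from Serpinb6b at -0.43 to Serpinb9b at 0.56.

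Other genes of the system were compared through lists. Of 6 measured receptors and cofactors of plasminogen 3 were higher and 3 lower, with a median of 0.00 and none past 1.5-fold, against the 0.832% and 1.61% given above for all genes. Anxa2, the annexin that binds plasminogen and tissue-type activator, differed by 0.16, the plasminogen receptor Plgrkt by 0.11, and Camk1, a kinase on the list with no established part in plasminogen binding, by -0.49. Of 8 measured partners of the urokinase receptor 1 passed 1.5-fold, the fibronectin receptor subunit Itga5 at -0.62, and it no longer did under any of the other 3 scalings. Cav1, caveolin, differed by 0.37 and the integrin subunit Itgb5 by -0.25. Of 7 measured receptors and adaptors that clear protease-serpin complexes none passed 1.5-fold. Vldlr, a receptor that takes up such complexes, came closest, at 8.05 in the knock-out and 8.64 in the wildtype (-0.58), while Sorl1 and Sort1 differed by 0.27 and 0.26.

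Among other proteases and inhibitors of clotting and fibrinolysis, 5 of the 6 measured genes were higher in the knock-out, with a median of 0.26, and 1 passed 1.5-fold. This was Tfpi2, a secreted Kunitz-type inhibitor that acts on plasmin, at 11.86 in the knock-out and 11.07 in the wildtype, a difference of 0.79, which stayed past 1.5-fold under the other 3 scalings. Tfpi, the inhibitor of the tissue factor pathway, differed by 0.46 and the thrombin receptor F2r by 0.33. Tfpi2 and Serpinb2, inhibitors of plasmin and of its activators from unrelated families, were both higher in the knock-out array. This pair was set together after the values were seen, and the plasmin inhibitor Serpinf2 differed by only 0.07. Of the proteases that intracellular serpins can block, 5 of 11 were measured and none passed 1.5-fold, with Ctsb at -0.47, Ctsk at -0.15 and Ctss at -0.05. Granzyme B (Gzmb) and granzyme A (Gzma) were below the median of both arrays.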

How the data were processed

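RNA from MEFs was measured on 2 Affymetrix Mouse430_2 arrays, 1 per genotype. Per the labels' protocols, the RNA was Trizol-extracted total RNA, of which 100 ng went into biotin labelling. The authors deposited 1 log2 value per probe set; the log2 scale is inferred from the range (2.09 to 14.71), and for how probes were summarized and arrays normalized the method was not given in the sources used here. Sorted values differed between the arrays by up to 0.133, so the probe set values as deposited did not share one common distribution. Whether one had been imposed on the probes before they were summarized cannot be told from this.

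Gene names are those of the GEO platform annotation. It gives 1 symbol to 34958 probe sets, several to 932 and none to 9160 non-control probe sets. All 44 members matched a RefSeq gene (GRCm38.p6), with 0 changed symbols. That table holds 73 genes whose symbol fits the rule, and those without a 1-symbol probe set were not analysed here. Each gene is given by its brightest probe set on average over both arrays. With 1 array per genotype no test was possible, and a fixed size of 1.5-fold took its place. The genes named are every measured member, the checks of the labels, up to 3 genes per list with the largest differences, and a few markers and list members picked after their values were seen. The members and lists were chosen with earlier results of these data known.

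Alternatives were a median difference of 0, quantile normalization, loess centring (span 0.3), 16 added to linear values, the median over a gene's probe sets, dropping the _x_at and _s_at types, floors at the 75th or 40th percentile, no floor, and 2-fold. The code was run on simulated arrays, which held no variation between cultures and so say nothing of how often such calls are false. Python 3.11.15, pandas 2.3.3, statsmodels 0.14.6 and Biopython 1.88 were used. The number of arrays limits the precision.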

Additional observations from a re-analysis of the deposited data

How the results depend on the processing

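No paired analysis was possible because there was a single array for each genotype. The number of members past 1.5-fold higher was 1 with the values as deposited. It was 2 with the median difference set to 0, with quantile normalization and with loess centring, where Serpinb9b joined Serpinb2, at 0.62 to 0.66. It was 0 at the 2-fold size. Under these 3 scalings the median over all measured genes was 0.01 to 0.02, in place of -0.05 as deposited, and single genes moved up or down. Serpinb2 was 1.01 to 1.06 under them and so past 2-fold. The number past 1.5-fold lower was 0 under every alternative. The number of members at or above the floor on both arrays was 16, but 10 once the floor was set to the 75th percentile. It was 21 with the floor at the 40th percentile, 14 with the median over all probe sets and 15 without the _x_at and _s_at types. The median difference of the members lay between 0.02 and 0.10 over all alternatives.

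Serpinb2 stayed between 0.91 and 1.06 under its 6 alternatives. Of the 16 measured members 14 kept their sign under all their alternatives. The exceptions were Serpinb8, which turned to as low as -0.04 with quantile normalization and loess centring, and Plat, which turned to 0.03 with the median over both its probe sets. Serpini1 dropped to 0.01 with the median over its 3 probe sets.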
